A study of Homo sapiens with 4 samples.

Results

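Transcripts of 6 genes with exons known to be regulated by RBM35A were followed on arrays of LS180, an established line of human colon carcinoma cells: ITGA6, NF2, CTNND1, FGFR2, ARHGEF11 and MAP3K7. RBM35A is the older name of ESRP1. The members were all probe sets that the array annotation gave to 1 of these genes, kept apart by probe set, whatever their values; CD44 was left out. The 6 genes, of 8225 on the arrays with such a probe set, had 15 of the 10943 probe sets with 1 gene symbol, and 6 of the 15, from 3 genes, reached log2 5 on at least 1 of the 4 arrays. A further probe set was annotated both to CTNND1 and to the read-through gene TMX2-CTNND1 and is given by its ID.

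RBM35A+ cells carried a Tet-off RBM35A construct, which is switched on when doxycycline is withdrawn, here for 6 days or more. RBM35A− cells stayed in doxycycline and are named parental in the labels, which leaves unsaid if the construct was present in them. Polysomal RNA, taken from the ribosome-loaded part of a sucrose gradient, and total RNA, extracted with TRIZOL, were hybridized to Affymetrix HG-U95Av2 arrays, with 1 array for each of polysomal RNA of RBM35A+ cells, polysomal RNA of RBM35A− cells, total RNA of RBM35A+ cells and total RNA of RBM35A− cells. The study asked how RBM35A alters both RNA pools. With 1 array per group no difference has a replicate check and no p-value is given; doxycycline, RBM35A and, if the parental cells lacked the construct, the cell line changed together and cannot be told apart.

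ESRP1 binds GU-rich RNA near alternative exons and favours the exon choices of epithelial cells, which change when cells take on mesenchymal character. Its known targets include the exons that decide the cytoplasmic tail of integrin alpha6, the ligand-binding domain of FGFR2 and the amino terminus of p120 catenin. A splicing switch can leave the amount of a transcript the same while moving the signal of those probes that lie in the switched exon, so probe sets of 1 gene are described separately. The exon that each probe set reads is not given in the sources used here.

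The cells had the markers of the label: 9 of 10 epithelial and colon markers were measured, KRT8 highest at 13.21 in RBM35A+ and 13.45 in RBM35A− polysomal RNA, while KRT20 lay below the floor. VIM, ZEB1, ZEB2, FN1 and 4 more of the 9 mesenchymal markers with a probe set lay below the floor on every array, and CDH11 was measured. No probe set used here was annotated to ESRP1 or ESRP2, so the RBM35A state rests on the labels. Of 12626 probe sets, 34.2% reached log2 5 on each polysomal array and 33.8% on each total array. The arrays are bulk samples, in which fewer cells expressing a gene and less of its RNA per cell cannot be told apart.

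The deposited values of the 16 probe sets fell into a detected and an undetected part. ITGA6 41266_at was highest, at 10.72 and 10.75 in polysomal and 11.07 and 10.89 in total RNA (RBM35A+ and RBM35A− in each fraction). Next came ITGA6 33410_at and NF2 38007_at, with means over the 4 arrays of 8.49 and 7.36. Levels of different probe sets depend on the probes as well as on the transcripts, so this order describes the signals and not the abundance of the genes. The threshold of log2 5 passed between MAP3K7 36905_at, with a highest value of 5.71, and FGFR2 1970_s_at, with a highest value of 4.68.

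**Figure D1:**
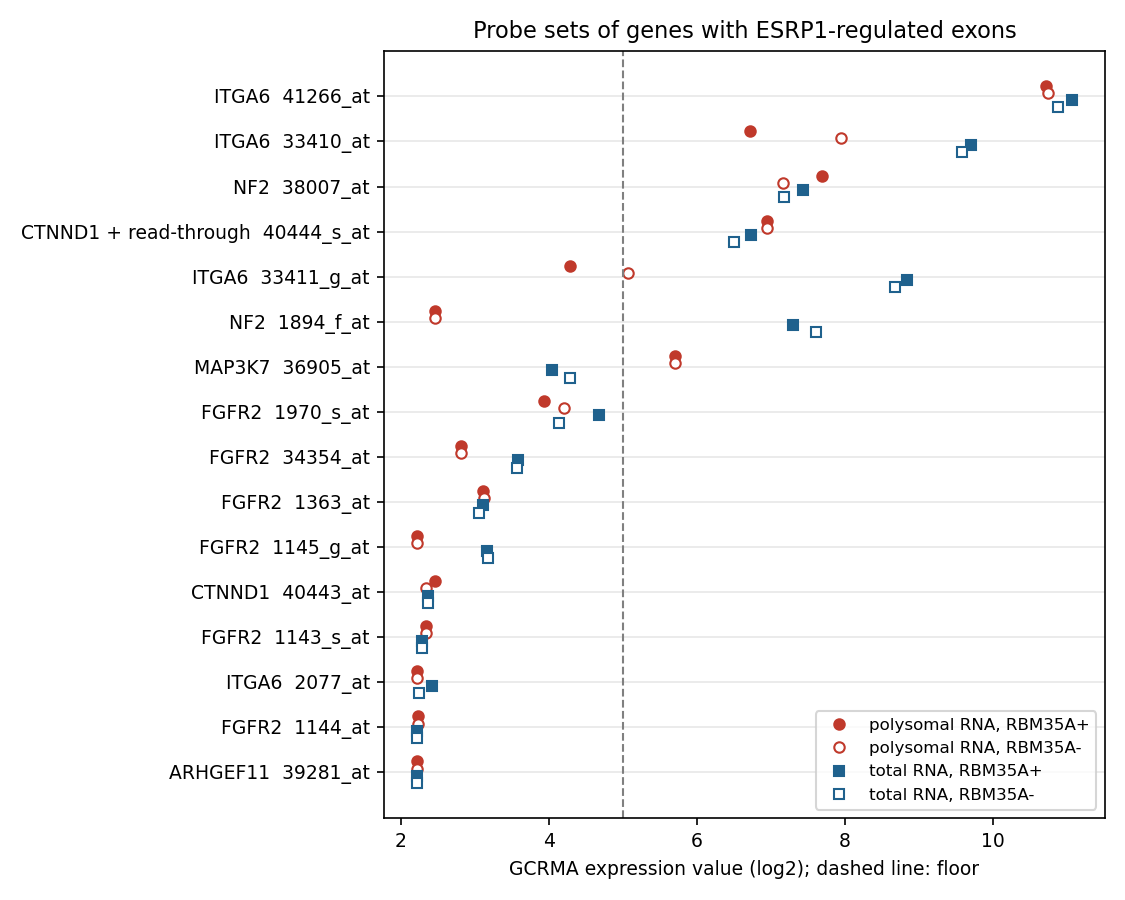
Deposited GCRMA value (log2, horizontal axis) of each of the 16 probe sets (rows, ordered by mean) on the 4 arrays; circles are polysomal and squares total RNA, filled symbols RBM35A+ and open symbols RBM35A− cells, and each symbol is 1 array. ITGA6 33410_at shows the widest gap between RBM35A states, 6.72 in RBM35A+ and 7.95 in RBM35A− polysomal RNA, and all FGFR2 probe sets lie left of the dashed floor at 5.

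ITGA6 encodes integrin alpha6, which pairs with beta1 or beta4 as a receptor for laminin. Its probe sets differed from each other in polysomal RNA. ITGA6 33410_at read 6.72 on the RBM35A+ and 7.95 on the RBM35A− polysomal array, a difference of −1.23 (2.34-fold lower with RBM35A). It was 1 of 5 member probe sets measurable in polysomal RNA and the 1 of them past 1.5-fold, against 2.43% past 1.5-fold in either direction among the 3871 probe sets measurable in that fraction (1.7% lower), and only 4 of these lay as low or lower, itself included. The SD of 1 probe set, estimated from the disagreement among probe sets of the same gene in 407 genes, was 0.192 in polysomal RNA; it covers differences between probes and not between cultures.

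ITGA6 33411_g_at, which the annotation traces to the same source sequence and which is therefore no separate measurement, read 4.29 in RBM35A+ and 5.07 in RBM35A− polysomal RNA. Its RBM35A+ value lay under the floor, so its difference is known only as −0.07 or lower, and as deposited it was −0.79. ITGA6 41266_at, from another source sequence, differed by −0.03 in the same RNA. Thus the 2 linked probe sets were lower on the RBM35A+ array and the brightest one read nearly the same on both.

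In total RNA the ITGA6 probe sets moved together. The 33410_at probe set read 9.71 in RBM35A+ and 9.59 in RBM35A− cells, a difference of 0.12. The 33411_g_at probe set read 8.84 and 8.69 in the same order of cells (0.15), and 41266_at differed by 0.18. All 3 were slightly higher with RBM35A, each by less than the SD of 1 probe set in total RNA, 0.210. The remaining ITGA6 probe set, 2077_at, read between 2.22 and 2.43 on the 4 arrays and was not measurable.

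Set against the total RNA difference, the polysomal difference of 33410_at gave a difference of differences of −1.35, and 4 of 3549 probe sets with both differences, itself included, lay as low or lower. Of the 4 member probe sets with a difference of differences, 33410_at was the 1 past 1.5-fold, against 3.72% of all. The other 2 ITGA6 values were −0.22 or lower for 33411_g_at, with its floored array, and −0.22 for 41266_at.

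**Figure D2:**
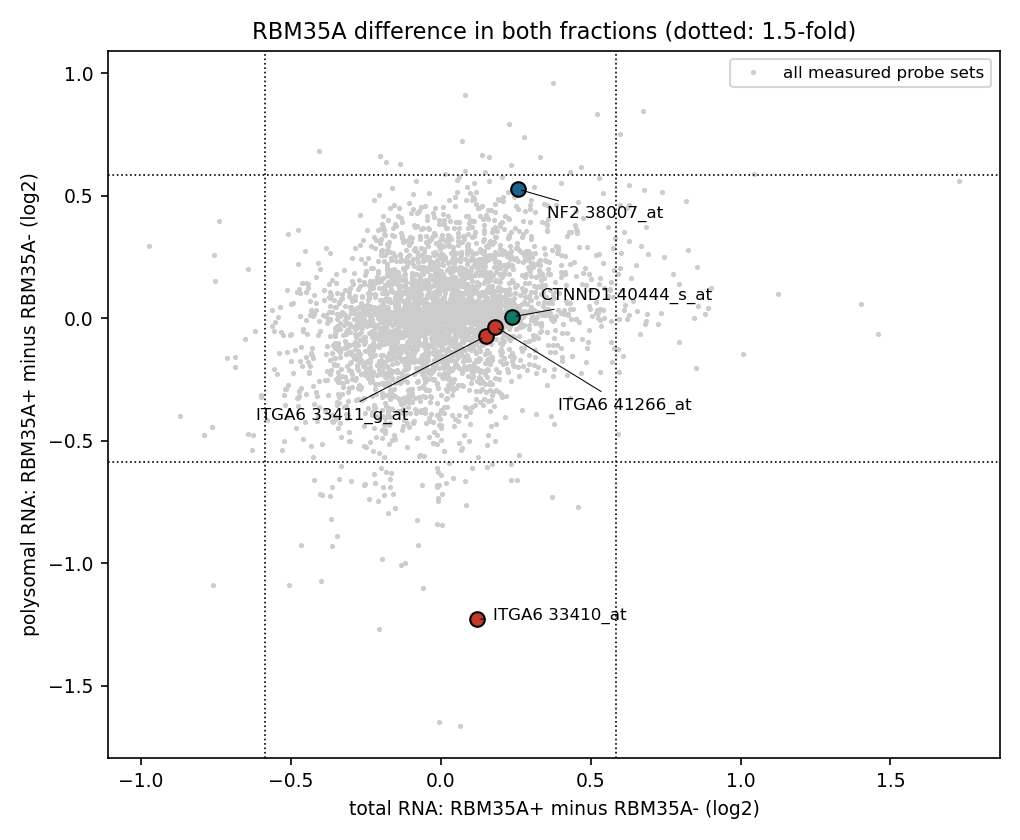
Difference between RBM35A+ and RBM35A− cells (log2) in total RNA (horizontal) and polysomal RNA (vertical) for every measured probe set (grey) and for the member probe sets measurable in both fractions (coloured; CTNND1 40444_s_at is also annotated to TMX2-CTNND1). ITGA6 33410_at lies at 0.12 and −1.23, while the other coloured points stay inside the dotted lines at 1.5-fold.

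The ITGA6 probe sets also differed from each other between fractions. The polysomal minus total difference of ITGA6 33410_at was −2.99 in RBM35A+ cells (6.72 and 9.71) and −1.64 in RBM35A− cells (7.95 and 9.59). For 33411_g_at the fraction difference was −3.84 or lower in RBM35A+ cells, since its polysomal value was floored, and −3.61 in RBM35A− cells. For 41266_at it was −0.35 and −0.14 in these cells. The fractions were normalized apart, so each of these differences is read only against those of other probe sets on the same pair of arrays.

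Control probe sets at the 5′ end of the beta-actin transcript behaved in the same direction: 9.42 in RBM35A+ and 10.29 in RBM35A− polysomal RNA, a difference of −0.86, while the 3′ control differed by −0.02. For GAPDH the 5′ control differed by −0.79 and the 3′ control by −0.13 in polysomal RNA. In total RNA both 5′ controls were within 0.05 of 0. Of the 291 probe sets that were lower by 1 or more in polysomal than in total RNA of RBM35A− cells and measurable in polysomal RNA, 8.25% were at least 1.5-fold lower in RBM35A+ polysomal RNA and 1.37% at least 1.5-fold higher, against 1.7% and 0.723% of all. The part of 5′ signal in the ITGA6 difference was not tested, and the position that ITGA6 33410_at reads is not given in the sources used here.

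**Figure D3:**
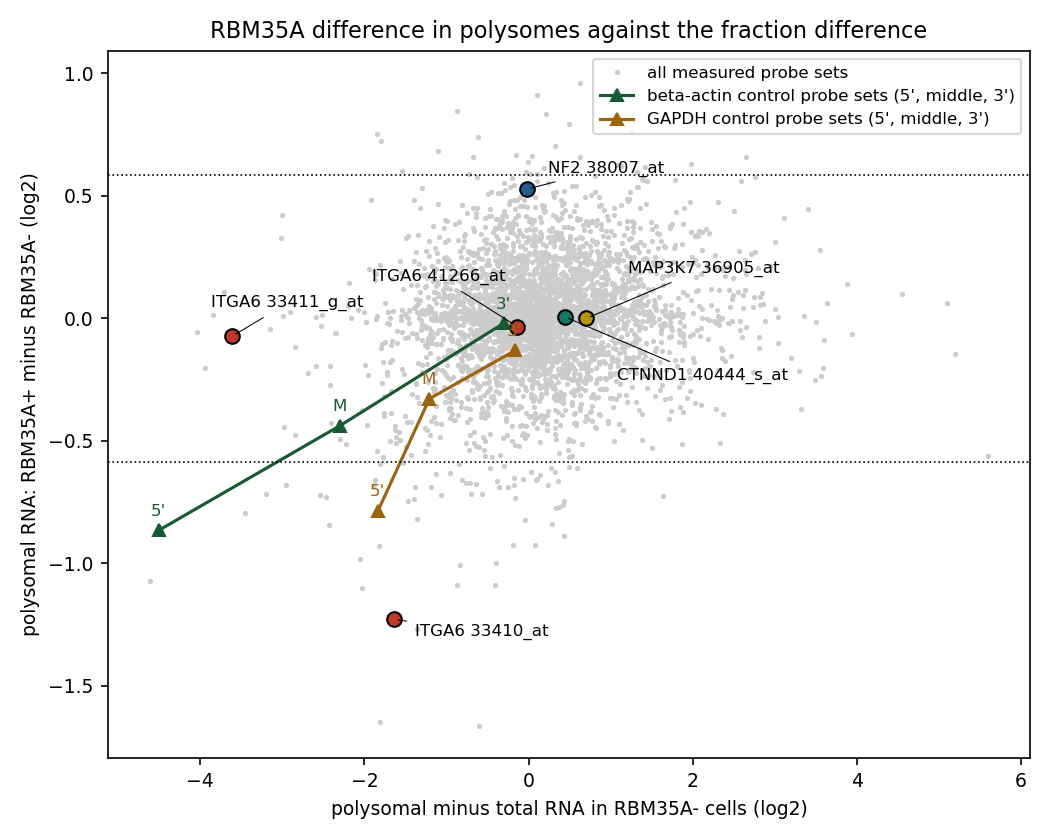
Difference between RBM35A+ and RBM35A− cells in polysomal RNA (log2, vertical) against polysomal minus total RNA in RBM35A− cells (log2, horizontal) for every measured probe set (grey), the member probe sets (coloured circles) and the beta-actin and GAPDH controls at the 5′ end, middle (M) and 3′ end (triangles, joined from 5′ to 3′). The 5′ controls sit at −0.86 and −0.79 and ITGA6 33410_at at −1.23 on the vertical axis.

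Disagreement between probe sets of a gene placed ITGA6 near the top in polysomal RNA and below the median in total RNA. Its range of differences was 1.20 in polysomal RNA, the second of 407 genes with at least 2 measurable probe sets, after MYC (1.23) and ahead of UBE3B (0.963); the median range was 0.155. In total RNA its range was 0.06, at rank 350 of 438 genes, where the median was 0.191. CD44, another gene with ESRP1-regulated exons, had ranges of 0.714 in polysomal RNA (rank 10) and 1.08 in total RNA (rank 4).

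NF2 encodes merlin, a tumour suppressor that links the membrane to actin and feeds the Hippo pathway. NF2 38007_at read 7.69 in RBM35A+ and 7.16 in RBM35A− polysomal RNA, a difference of 0.53, and 7.43 and 7.18 in total RNA of these cells, a difference of 0.26. Both values were higher with RBM35A and neither reached 1.5-fold, though only 48 of 3871 probe sets, itself included, lay as high or higher in polysomal RNA. None (0) of the 5 member probe sets measurable in total RNA passed 1.5-fold, against 2.49% of 3853.

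The other NF2 probe set, 1894_f_at, went the other way in total RNA, at 7.30 in RBM35A+ and 7.61 in RBM35A− cells (−0.31). It lay far below the floor in polysomal RNA, at 2.47 and 2.46, so nothing can be said of RBM35A there, and its polysomal minus total difference was −2.30 or lower in RBM35A+ and −2.61 or lower in RBM35A− cells. The NF2 probe sets thus differed by 0.57 in total RNA, rank 32 of 438 genes. The letter f in its ID marks probes that other transcripts may share, so its assignment to NF2 is uncertain.

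MAP3K7 encodes TAK1, the kinase that carries TGF-beta, interleukin and Toll-like receptor signals to NF-kappaB and stress kinases. Its 1 probe set, 36905_at, read 5.71 on both polysomal arrays, a difference of 0.00; among all 12626 probe sets it was 1 of 31 at log2 5 or more whose deposited values were identical, to the last digit given, on both arrays. In total RNA it lay below the floor, at 4.05 in RBM35A+ and 4.29 in RBM35A− cells, so its polysomal minus total difference was at least 0.71 in both states.

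CTNND1 encodes p120 catenin, which holds cadherins at the cell surface. The probe set annotated to CTNND1 alone, 40443_at, read between 2.35 and 2.46 on the 4 arrays and was not measurable. The probe set shared with the read-through annotation, 40444_s_at, read 6.95 in RBM35A+ and 6.94 in RBM35A− polysomal RNA (0.01), and 6.74 in RBM35A+ and 6.50 in RBM35A− total RNA (0.24). Both differences were small beside 1.5-fold.

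FGFR2, a receptor tyrosine kinase whose epithelial form binds FGF7 and FGF10, had 6 probe sets and none (0) was measurable. FGFR2 1970_s_at came closest, at 3.94 in RBM35A+ and 4.20 in RBM35A− polysomal RNA and at 4.68 in RBM35A+ and 4.14 in RBM35A− total RNA. The other 5 FGFR2 probe sets stayed between 2.22 and 3.58. ARHGEF11, an exchange factor that activates RhoA, read 2.22 on all 4 arrays. No statement on RBM35A can be made for either gene.

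Between fractions, 3 of 6 member probe sets were at least 2-fold lower in polysomal than in total RNA in each state, against 9.54% of all probe sets in RBM35A+ cells and 9.34% in RBM35A− cells. They were ITGA6 33410_at and 33411_g_at, which share a source sequence and are no separate measurements, and NF2 1894_f_at. The last was measured only through total RNA, so it could only come out lower in polysomal RNA. Without probe sets of shared sequence, 1 of 4 member probe sets was at least 2-fold lower in each state. The count of 3 thus leans on 33411_g_at and NF2 1894_f_at. The share of all probe sets without those of shared sequence was not computed. The other NF2 probe set was at 0.26 in RBM35A+ and −0.01 in RBM35A− cells, so for both genes another probe set of the same gene showed little fraction difference. Over all genes with several probe sets, the SD of 1 probe set for polysomal minus total RNA was 0.837 in RBM35A+ and 0.814 in RBM35A− cells.

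Genes that work with the members, splicing regulators and other genes with ESRP-regulated exons were read from 8 lists, each gene by its brightest probe set. Among partners of integrin alpha6 and the hemidesmosome, 7 of 14 were measured; 0 passed 1.5-fold in polysomal RNA, and in total RNA 2 were higher and 0 lower by that much, with medians of −0.07 in polysomal and 0.16 in total RNA. They were PLEC, which encodes the cytoskeletal linker plectin (0.02 in polysomal and 0.63 in total RNA, with 0.02 or more in total RNA at its other probe set, floored in RBM35A− cells), and the laminin receptor subunit ITGA3 (0.46 and 0.63, with 0.11 and 0.27 at its other probe set). The integrin subunits that pair with alpha6 did not reach 1.5-fold: ITGB1 was at −0.17 in polysomal and −0.04 in total RNA, and ITGB4 at −0.17 and 0.16. Over all genes, the median was 0.02 in polysomal RNA (3391 genes measurable there) and 0.00 in total RNA (3320 genes), and 1.54% were higher by 1.5-fold in total RNA.

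Among p120 catenin partners in adherens junctions, 1 of 9 measured in total RNA was at least 1.5-fold higher, ARVCF, a close relative of p120 catenin (7.94 in RBM35A+ and 7.14 in RBM35A− cells, 0.79), with 0.14 in polysomal RNA. The medians of this list were 0.08 in polysomal and 0.10 in total RNA. CDH1, the E-cadherin that p120 catenin binds, was at 0.10 and 0.39 at its brightest probe set. Another CDH1 probe set went the other way in total RNA and past 1.5-fold, at 6.60 in RBM35A+ and 7.54 in RBM35A− cells (−0.94). That probe set lay below the floor in polysomal RNA. Among splicing regulators of epithelial and mesenchymal exons, 1 of 8 measurable in polysomal RNA was at least 1.5-fold lower, HNRNPH1, which binds G-rich RNA (6.35 in RBM35A+ and 7.12 in RBM35A− cells, −0.77), with −0.15 in total RNA. Over all genes measurable in polysomal RNA, 1.30% were lower by 1.5-fold. The medians of the splicing regulators were 0.01 in polysomal and −0.12 in total RNA.

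The other 5 lists held no gene (0) past 1.5-fold in either fraction at its brightest probe set. Over all genes, 0.77% were higher and 1.30% lower by that much in polysomal RNA, and 1.54% and 0.66% in total RNA. CD44, in the merlin list, was at 0.10 and −0.18 at its brightest probe set. Its measured probe sets went from 0.04 to 0.75 in polysomal and from −0.48 to 0.60 in total RNA, past 1.5-fold at the highest. By brightest probe set, the largest polysomal values were NFKBIA, the inhibitor of NF-kappaB, at 0.58 in the TAK1 list, the actin nucleator DIAPH1 at 0.53 in the RhoA list, the ERK phosphatase DUSP6 at −0.49 in the FGF list and the ezrin relative MSN at 0.31 in the merlin list. In total RNA they were TAB1, a TAK1 subunit, at 0.53, the semaphorin receptor PLXNB1 at 0.43, DUSP6 again at −0.19 and the Hippo-responsive factor TEAD4 at −0.55. Of 10 further genes with exons reported to be regulated by ESRP proteins, 4 had a probe set used here and 2 were measured: the polarity protein SCRIB (0.05 in polysomal and 0.17 in total RNA) and the GTPase RAC1 (0.05 and −0.03). FGFR1, FGFR3, FGF1, FGF2, FGF7 and FGF18 lay below the floor on all arrays, and FGFR4 was measured, at −0.07 in polysomal and 0.08 in total RNA.

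**Figure D4:**
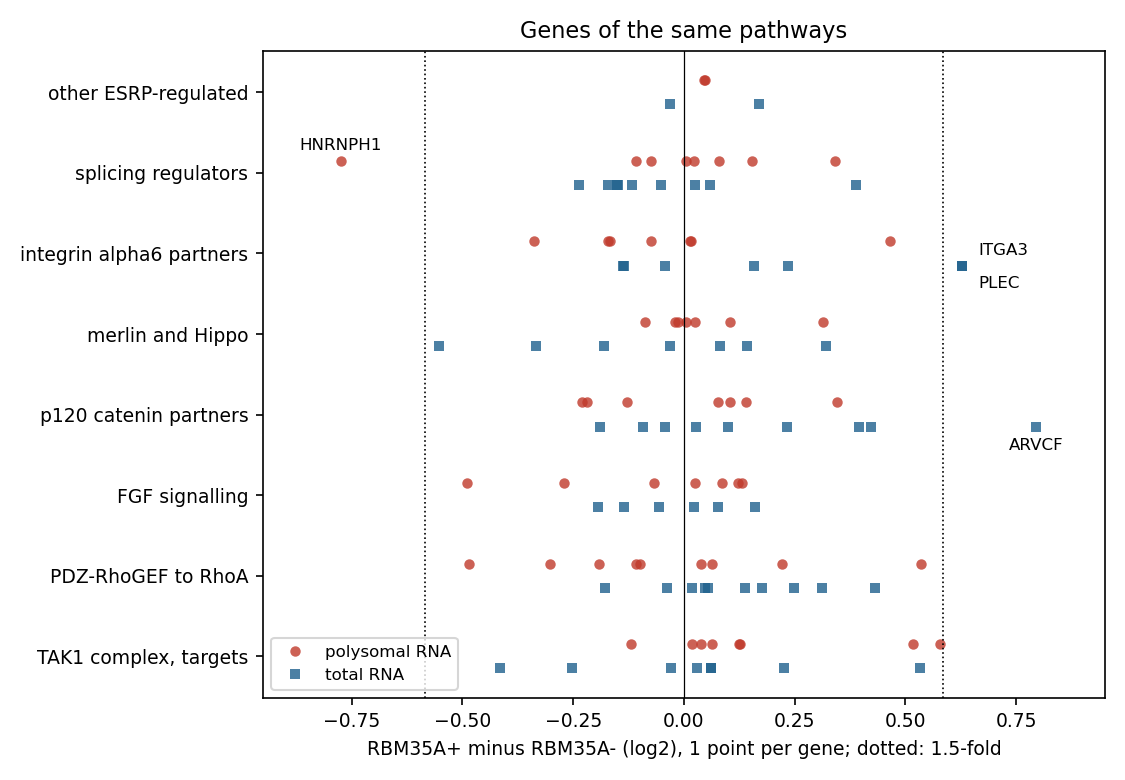
Difference between RBM35A+ and RBM35A− cells (log2) of each measured gene, by its brightest probe set, in 8 lists. The lists hold genes that work with the members, splicing regulators and other genes with ESRP-regulated exons. Circles are polysomal and squares total RNA, and dotted lines mark 1.5-fold. HNRNPH1 in polysomal RNA and ARVCF, PLEC and ITGA3 in total RNA lie outside the lines.

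The genes nearest in pattern over the 4 arrays, each centred on its own mean, were SMTN and PVR for ITGA6 41266_at. Their distances were 0.02 on the log2 scale, with PVR floored on both polysomal arrays. For NF2 38007_at they were RNASE1 and MCM7 (0.11 and 0.12), and for MAP3K7 NDST1 and RXRA (0.02 each). MAP3K7 and NDST1 were floored on both total RNA arrays, so their match there was set by the floor. The distance to RXRA also rests on the floored total RNA values of MAP3K7. The measure rests on 4 arrays.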

How the data were processed

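The deposited table holds GCRMA expression values on a log2 scale, made by the authors per the submitters' processing notes (version not given in the sources used here), with 1 value per probe set and array. Sorted values agreed within 6.61e-06 in the polysomal pair and 4.29e-06 in the total RNA pair and differed by up to 0.227 between pairs, so each pair had been quantile normalized apart. Probe sets with 1 symbol in the array annotation were named by gene ID through RefSeq; 546 had several symbols and 1070 none. Values under log2 5 were raised to 5; a difference with 1 floored value is a bound, and a pair with both floored was left out. Differences and counts at 1.5-fold and 2-fold were computed with Python 3.11.15, pandas 2.3.3 and numpy 2.4.6 over the 4175 measured probe sets; they carry no p-value. The calculation was tested on simulated data.

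All member probe sets are named, with partner genes past 1.5-fold (otherwise the largest in each fraction) and the 2 nearest genes in pattern. Members and lists were chosen with earlier results of these data known.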

Additional observations from a re-analysis of the deposited data

Results flagged for a closer look

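In all 3 measured ITGA6 probe sets the RBM35A difference was below 0 in polysomal and above 0 in total RNA. Of these, 33410_at and 33411_g_at share a source sequence. With 1 array per group the difference between fractions was not tested. The difference of differences was −1.35 for ITGA6 33410_at and −0.216 for 41266_at, against an SD of 1 probe set of 0.243 for this quantity. For 33411_g_at it was a bound, −0.223 or lower, and −0.938 as deposited. The polysomal difference of 33411_g_at was −0.07 or lower, with a floored array. With the trend on the fraction difference removed it was again a bound, 0.17 or lower, so its sign there is not known.

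Outside the gene probe sets, the 5′ control for 18S ribosomal RNA read 11.57 on the total RNA array of RBM35A+ cells and 2.22 on each of the other 3 arrays, while its 3′ control read 2.22 on all 4. The part of this in the total RNA differences was not tested.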

How the results depend on the processing

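The polysomal difference of ITGA6 33410_at stayed past 2-fold under every alternative run. It was −1.08 with the trend on the fraction difference removed and −1.25 after subtraction of the median of the 100 probe sets nearest in level. That trend was a single weak line over all measurable probe sets (slope 0.063, r 0.25). Its removal is no adjustment for 5′ signal, the part of which was not tested. The count of 1 member probe set past 1.5-fold in polysomal RNA became 2 with a floor of 4 and 2 without floor or filter, since 33411_g_at was then at −0.79, and 0 when the probe sets of a gene were averaged. The count of 1 for the difference of differences became 3 with a floor of 4 and 3 without floor or filter, with 33411_g_at and FGFR2 1970_s_at added. The 3 probe sets at least 2-fold lower in polysomal than in total RNA became 1 in RBM35A+ and 1 in RBM35A− cells without probe sets of shared sequence. The count of 0 in total RNA did not change under the alternatives run. Of 55 recomputed values of single probe sets, 52 moved by less than the SD of 1 probe set. The other 3, all polysomal values of 33411_g_at, moved by more. They were −0.79 with a floor of 4 and without floor or filter, and 0.17 with the trend on the fraction difference removed. The last was computed from the floored value and is a bound, 0.17 or lower, so no turn of sign was shown. No paired analysis was possible because each group had 1 array, and no replicate could be left out. Signal over background limits FGFR2, ARHGEF11, CTNND1 and, in 1 fraction each, MAP3K7 and NF2 1894_f_at.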

Other observations

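Some genes of the lists differed more between fractions than between RBM35A states. They were picked because these values stood out, so the values are no test. The fractions were normalized apart, and the SD of 1 probe set for polysomal minus total RNA was 0.837 in RBM35A+ and 0.814 in RBM35A− cells. FGF9 and CDH3 were measured only through the fraction where they were high. RBFOX2, from the list of splicing regulators, read 8.36 in polysomal and 6.16 in total RNA of RBM35A+ cells, and 8.43 and 6.33 in RBM35A− cells. CELF1, which binds GU-rich RNA, read 9.87 and 7.50 in RBM35A+ cells and 9.53 and 7.47 in RBM35A− cells. The growth factor FGF9 read 6.19 in RBM35A+ and 6.07 in RBM35A− polysomal RNA and lay below the floor in total RNA, and the cadherin CDH3 read 6.16 in RBM35A+ and 6.25 in RBM35A− total RNA and lay below the floor in polysomal RNA.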
